A study of Mus musculus with 10 samples.

Results

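Chromatin accessibility was compared between wild-type mouse germ cells sorted on 4C DNA content and wild-type cKIT+ germ cells, on chromosomes 1 to 19. The comparison used 4 of the 10 samples of a study of the chromatin remodeler Smarca5 in the testis, each a list of ATAC-seq peaks. ATAC-seq cuts open chromatin with a transposase, and a peak marks a stretch with more cuts than its surroundings. The members are the 151348 regions left after overlapping peaks of the 4 lists were merged. All 8 ATAC lists of the series gave 202046 such regions. A region or gene start held by both 4C-sorted lists and by neither cKIT+ list is called opened here, and the reverse pattern closed. An overlap of 1 bp between a peak and a region counted as presence.

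All 4 libraries came from C57BL6 wild-type animals and from 50000 sorted testicular cells each, and no treatment was named in the labels. The age of the mice and the number of animals behind a library are not given in the sources used here. The 4C-sorted group (2 libraries) was sorted by Hoechst staining, and the submitters call these cells pachytene or pachytene-like. A 4C gate also takes other cells with replicated DNA, among them spermatogonia and early spermatocytes before the first division. The protocol text of the cKIT+ group (2 libraries) carries both sorts, and only its line on library construction names cKIT+ cells. cKIT is the receptor of KIT ligand and marks differentiating spermatogonia, and the same receptor is carried by mast cells and some other somatic cells. Whether the replicates of a group are different animals is not stated in the labels, and a p-value here covers the spread between these samples only. In sorted bulk samples, fewer cells of a type and less open chromatin per cell cannot be told apart.

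Spermatogonia that carry cKIT divide by mitosis and enter meiosis under retinoic acid. In the pachytene stage of the first meiotic prophase, homologous chromosomes are paired and recombining, and many genes of the later spermatid and sperm are switched on. MYBL1, also called A-MYB, and RFX2 are transcription factors known to act at the promoters of pachytene genes and of piRNA precursors, the long RNAs cut into the small RNAs of germ cells.

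The sequences below are the 250 bases before the start of 7 opened genes, shown because a short word bound by MYB proteins was more frequent in the opened promoters than in other promoters. They were picked because they carry it: of the 19 opened genes named by rule, 8 had the word in these bases and 11 did not. The eighth, Slc2a5, has it 241 bases before its start and is not printed. They were read from RefSeq on GRCm38.p6, the mm10 build, and run 5′ to 3′ on the gene's own strand up to the base before the start. Capitals mark the word CAACTG, the form of it that begins with a T in place of the C (TAACTG), the form with a G before its last base (CAACGG), the form with both changes (TAACGG), or the reverse complement of any of them.
1700018A04Rik: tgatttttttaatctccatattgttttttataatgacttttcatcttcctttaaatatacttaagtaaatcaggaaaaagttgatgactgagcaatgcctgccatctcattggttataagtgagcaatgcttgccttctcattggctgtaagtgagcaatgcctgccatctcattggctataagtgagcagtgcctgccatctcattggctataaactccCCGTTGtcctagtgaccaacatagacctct
1700116B05Rik: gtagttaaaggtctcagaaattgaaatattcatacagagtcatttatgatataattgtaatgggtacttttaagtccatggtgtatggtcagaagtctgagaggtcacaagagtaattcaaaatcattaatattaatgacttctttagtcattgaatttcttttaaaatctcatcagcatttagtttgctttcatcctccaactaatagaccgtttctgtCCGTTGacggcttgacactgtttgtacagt
4930595L18Rik: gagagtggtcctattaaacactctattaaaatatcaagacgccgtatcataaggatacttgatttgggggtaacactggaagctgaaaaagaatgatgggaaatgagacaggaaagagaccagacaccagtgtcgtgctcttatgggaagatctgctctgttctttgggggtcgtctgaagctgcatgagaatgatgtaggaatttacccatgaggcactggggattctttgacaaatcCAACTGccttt
Gm10847: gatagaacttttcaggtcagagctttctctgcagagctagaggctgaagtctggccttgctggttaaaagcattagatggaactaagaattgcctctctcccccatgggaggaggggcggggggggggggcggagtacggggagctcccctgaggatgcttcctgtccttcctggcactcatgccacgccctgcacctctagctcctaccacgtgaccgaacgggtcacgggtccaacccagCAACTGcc
Stra6: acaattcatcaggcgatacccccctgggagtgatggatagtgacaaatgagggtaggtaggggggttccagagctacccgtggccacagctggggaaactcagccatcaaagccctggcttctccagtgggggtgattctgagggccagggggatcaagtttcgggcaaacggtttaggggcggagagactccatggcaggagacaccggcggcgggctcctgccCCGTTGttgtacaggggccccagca
She: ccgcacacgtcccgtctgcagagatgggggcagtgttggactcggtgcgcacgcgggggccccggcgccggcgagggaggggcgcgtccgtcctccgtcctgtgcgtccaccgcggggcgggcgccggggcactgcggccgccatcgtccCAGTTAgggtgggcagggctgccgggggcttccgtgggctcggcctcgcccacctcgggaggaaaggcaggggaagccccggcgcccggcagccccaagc
Ccnb1ip1: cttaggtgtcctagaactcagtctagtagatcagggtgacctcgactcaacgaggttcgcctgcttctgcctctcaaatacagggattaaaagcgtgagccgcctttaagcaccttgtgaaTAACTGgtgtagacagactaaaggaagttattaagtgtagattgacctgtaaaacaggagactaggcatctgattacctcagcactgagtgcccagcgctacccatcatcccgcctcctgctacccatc
They lie at chr13:31582514-31582763 (- strand), chr16:50783159-50783408 (+ strand), chr6:98552105-98552354 (- strand), chr14:74921875-74922124 (+ strand), chr9:58129099-58129348 (+ strand), chr3:89831120-89831369 (+ strand) and chr14:50795729-50795978 (- strand), in that order. The first base of the marked word lies 30 bases before the start in 1700018A04Rik and in 1700116B05Rik. The distance is 11 bases in 4930595L18Rik, 8 in Gm10847, 25 in Stra6, 100 in She and 129 in Ccnb1ip1. She, Stra6 and Ccnb1ip1 encode proteins, and the other 4 are long noncoding or uncharacterised transcripts.

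The 4 lists differed in length. The 4C-sorted lists held 47736 and 49488 autosomal peaks, and the cKIT+ lists 43672 and 110176. The list of cKIT+ replicate 2 stood apart, and 70399 regions (46.51%) were held by it alone. Among regions held by all 4 lists, the median fold over the local background was 5.53 and 5.54 in the 4C-sorted lists and 4.55 and 5.79 in the cKIT+ lists. The median peak was 368 and 377 bp wide in the 4C-sorted lists and 251 and 279 bp wide in the cKIT+ lists, groups that did not overlap. That is 372.5 ± 6.36 bp against 265 ± 19.8 bp (SD, n = 2 each). The exact two-sided permutation test gave p = 0.3333, the smallest that 2 against 2 allows, and p = 0.8332 after Benjamini-Hochberg adjustment over 5 measures. Peaks outside genes made up 24.56% and 25.56% of the 4C-sorted lists and 28.64% and 30.07% of the cKIT+ lists, again without overlap and with the same exact permutation p. Peak number, covered length and the share of peaks at gene starts overlapped between the groups. Of the peaks of 4C-sorted replicate 1, 70.84% touched a peak of replicate 2, and of those of cKIT+ replicate 1, 74.61% touched a peak of replicate 2. Of the peaks of cKIT+ replicate 2, 28.16% touched a peak of replicate 1. Read counts per library do not accompany peak lists, so the depth is unknown and no interval is given. A missing peak says only that no peak was called.

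**Figure D1:**
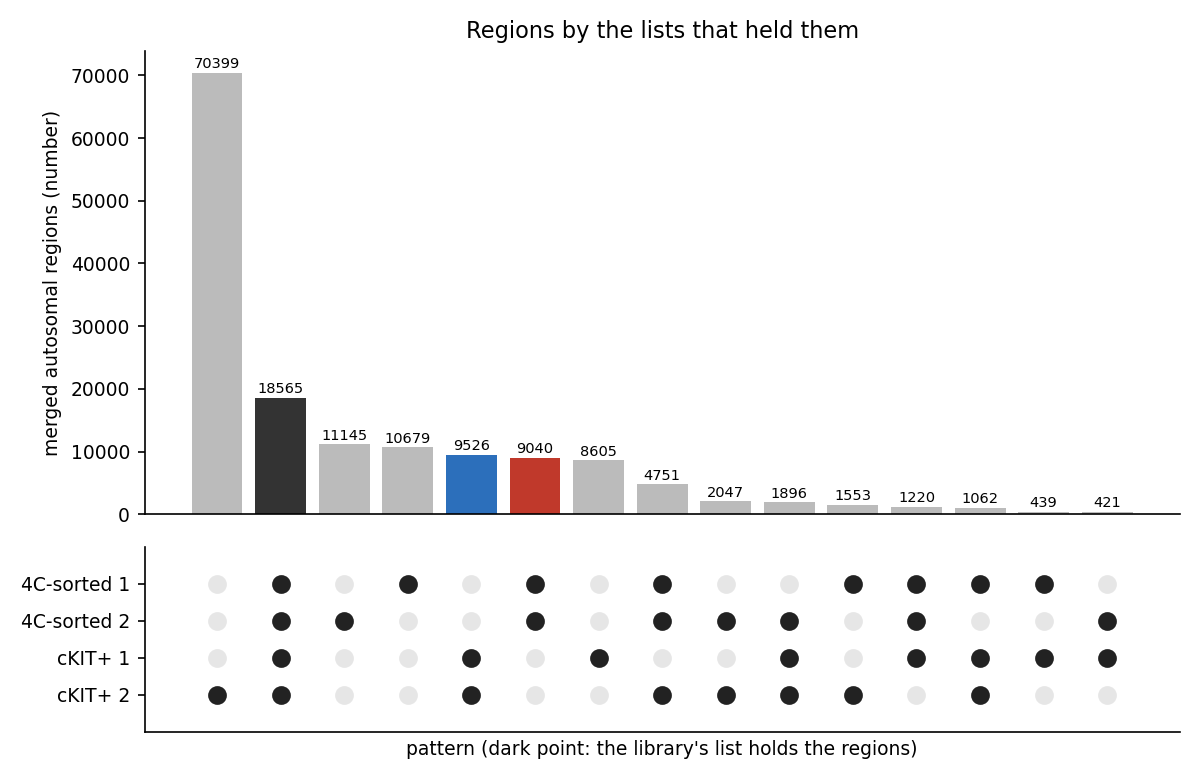
Bars give the number of merged autosomal regions (vertical axis) with each pattern over the 4 lists, and dark points below name the lists that held them. The tallest bar, 70399 regions, belongs to cKIT+ replicate 2 alone, and the 9040 opened (red) and 9526 closed (blue) regions are close in number.

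Of the 151348 regions, 9040 (5.97%) were opened, 9526 (6.29%) were closed, and 18565 (12.27%) were held by all 4 lists. The opened and closed numbers moved apart with the peaks used. With peaks of −log10 q of at least 5 there were 4613 opened and 3014 closed regions. With each list limited to its 43672 strongest peaks there were 11270 opened and 4134 closed regions. Without cKIT+ replicate 2 there were 13958 opened and 18955 closed regions, and without cKIT+ replicate 1 there were 80044 closed regions. Without 4C-sorted replicate 1 or 2 there were 20477 and 20097 opened regions.

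The places of opened and closed regions relative to genes were set beside those of all regions. A gene start is a RefSeq start with 1000 bp to each side, and starts on chromosome 18 were not used here. Of the opened regions, 10.0% lay at a start, 55.5% within genes and 34.5% outside genes. Of the closed regions, 7.1% lay at a start, 53.98% within genes and 38.92% outside. Over the 146557 regions outside chromosome 18 the shares were 11.94%, 57.19% and 30.87%. The shares of opened and closed regions are likewise over the 8746 and 9178 outside that chromosome. Regions held by all 4 lists lay at a start in 53.55% of the 18037 cases outside chromosome 18. Opened regions had a median width of 422 bp, closed regions 304 bp, and regions in all 4 lists 936 bp. The median distance to the nearest start was 18653 bp for opened, 20650 bp for closed and 18329 bp for all regions.

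**Figure D2:**
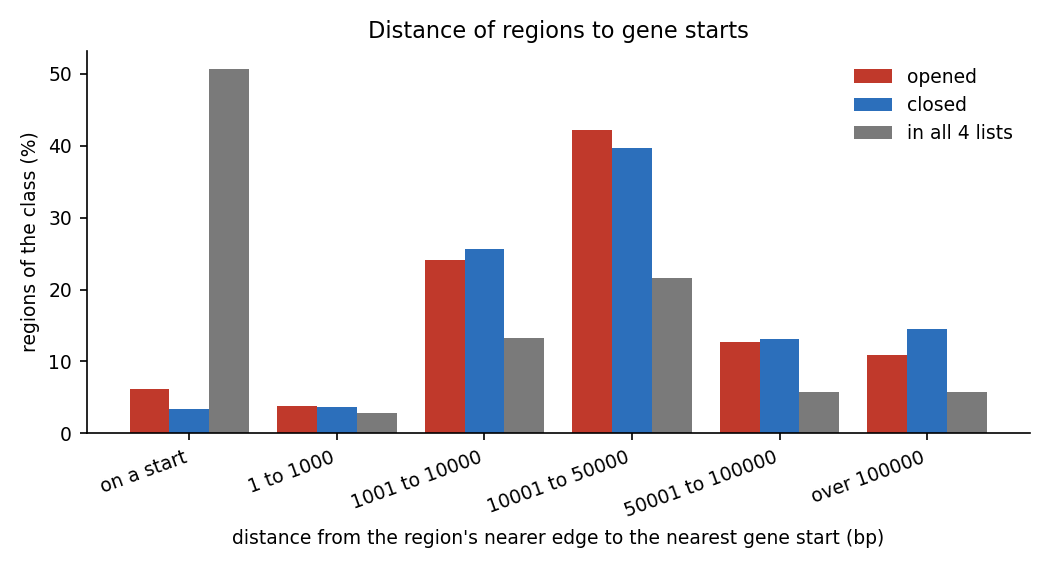
Bars give the percent of opened (red), closed (blue) and shared (grey, held by all 4 lists) regions in classes of distance from the region to the nearest gene start in bp. Opened and closed regions are alike in their most filled class, with 42.25% and 39.64%, while 50.67% of shared regions covered a start.

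At gene starts, 649 of 25748 genes (2.52%) were opened and 505 (1.96%) closed, while 11177 were held by all 4 lists and 8768 by none. At −log10 q of at least 5, 223 of the 649 opened and 45 of the 505 closed genes kept their pattern, and with lists of equal length 611 and 216 did. The peaks of both lists lay in a region of the same class for 623 opened and 453 closed genes. The opened starts belonged more to noncoding than to coding genes. Of 9291 long noncoding RNA genes, 419 (4.51%) were opened and 210 (2.26%) closed. Of 16457 protein coding genes, 230 (1.40%) were opened and 295 (1.79%) closed. Genes with the RIKEN names given to testis clones, such as 1700018A04Rik and 4930595L18Rik, were opened in 96 of 858 cases (11.19%) and closed in 14 (1.63%). Other RIKEN names were opened in 14 of 878 cases (1.60%) and closed in 27 (3.08%). That grouping by name was chosen after the opened genes had been seen.

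The opened starts with the highest folds in both 4C-sorted lists were 1700018A04Rik, with a fold of 10.37 in replicate 1 and 9.82 in replicate 2, and 1700116B05Rik, with 10.98 and 8.72. She, an adaptor protein with an SH2 domain, reached 9.28 and 9.27 (region chr3:89830923-89831526). Slco6d1, a member of a family of organic anion transporters, reached 7.84 and 9.01 at chr1:98420941-98421567. None of these starts had a peak in either cKIT+ list, which is what the class requires. Sprn, the prion-related protein Shadoo, reached 9.14 and 7.48. Slc9b1, a sodium/proton exchanger of sperm, reached 6.63 and 8.46 at chr3:135347795-135348658. The remaining 6 of the 12 opened starts of highest fold were LOC115488376, Gm32319, 4930595L18Rik, Gm41139, 1600002D24Rik and Gm10847. The peak files do not say how reads that match several copies were treated, so values at members of duplicated gene families are uncertain.

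Of the list of 57 spermatid and sperm genes, 1 was opened (1.75%), below the 2.52% of all genes. The opened starts of sperm and testis genes given next are examples named after their values were seen, and show nothing of sperm genes as a group. Slc9c1, a sperm sodium/proton exchanger, had folds of 5.98 and 5.15. Adcy10, the soluble adenylyl cyclase that sperm need for motility, had 5.68 and 5.92. Spata16, an acrosome protein, had 4.69 and 6.09. Catsperb, a subunit of the sperm calcium channel, had 4.42 and 4.31, and Atp1a4, the testis form of the sodium pump, 3.89 and 3.56. Odf4, a protein of the sperm tail, had 4.40 and 5.48. Izumo2, a relative of the sperm fusion protein IZUMO1, had 5.16 and 3.74. Prss39 and Prss40, serine proteases of the testis, had 4.62 and 4.84, and 4.10 and 3.89. Ppp3r2, the testis regulatory subunit of calcineurin, had 6.06 and 5.58, and Pfn3, a testis profilin, 4.48 and 4.54. Syce1l, a relative of the synaptonemal complex gene Syce1, had 7.21 and 5.74.

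The closed starts with the highest folds in both cKIT+ lists were Gm46178, with 7.57 in replicate 1 and 12.71 in replicate 2, and Gm52385, with 7.81 and 9.71. Fmo5, a flavin monooxygenase, had 6.54 and 9.69 at chr3:97628098-97628954. Calcrl, a receptor for calcitonin-related peptides, had 6.07 and 9.20 at chr2:84425208-84425596. Replicate 2 was higher than replicate 1 at each of the 12 closed starts of highest fold. Parm1 had 3.72 and 11.62, and Trim21, an antibody receptor and ubiquitin ligase of the cytosol, 3.24 and 10.74. Angptl6, a secreted angiopoietin-like protein, had 6.15 and 8.68. The others were C230024C17Rik, Fam13a, Ftdc1, Slc10a6 and Gm4258. With peaks of −log10 q of at least 5, Parm1, Fam13a, Trim21, Slc10a6 and Gm4258 were no longer closed, while all 12 opened starts of highest fold were still opened. Ldhb, the lactate dehydrogenase subunit of most tissues, was closed with 3.44 and 8.23. Its relatives were not: Ldha was held by all 4 lists with 8.29 and 7.89 in 4C-sorted and 4.11 and 5.04 in cKIT+ cells. Ldhc, the testis form, had 5.27 and 4.53 in 4C-sorted cells, no peak in cKIT+ replicate 1 and 3.95 in cKIT+ replicate 2. These lactate dehydrogenase genes, apart from Ldhc, were named after their values were seen.

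**Figure D3:**
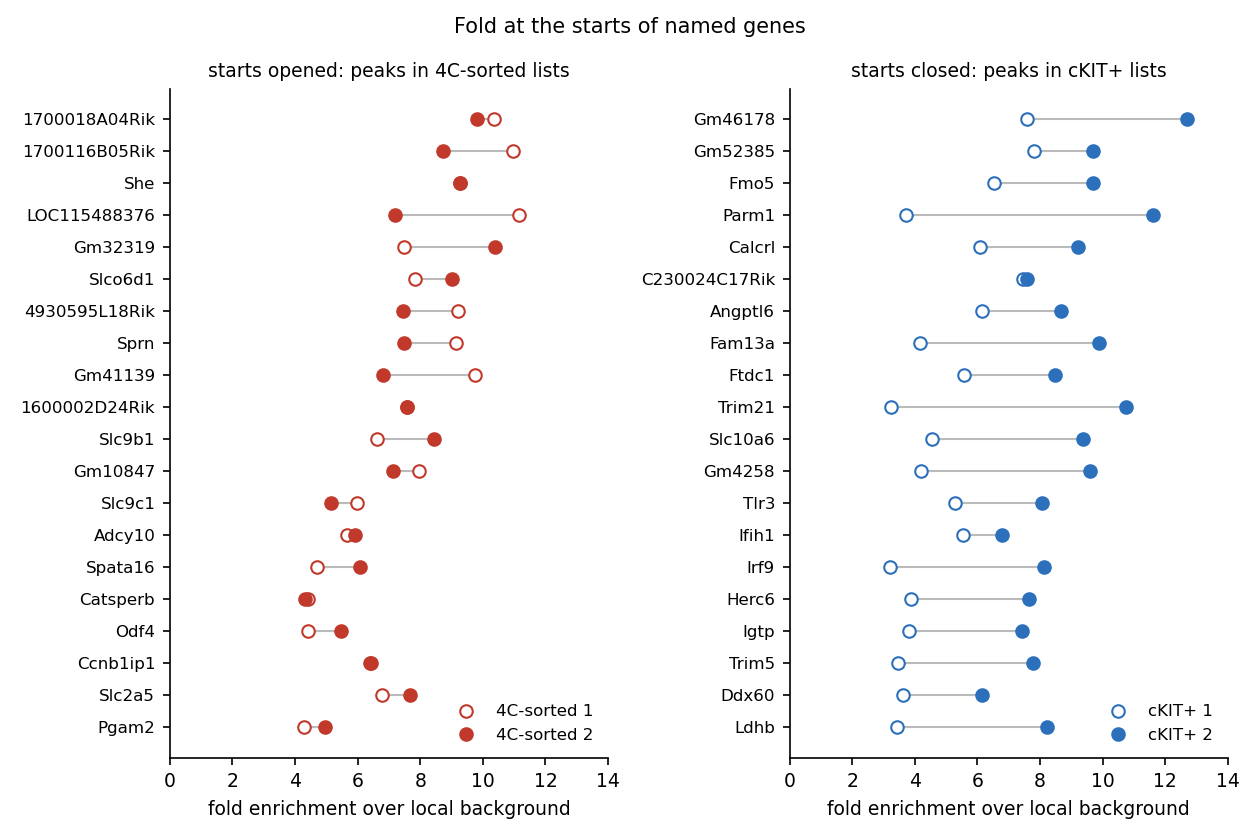
Points give the fold over local background (horizontal axis) at the starts of 20 opened genes in the 4C-sorted lists (left) and 20 closed genes in the cKIT+ lists (right), open circles for replicate 1 and filled for replicate 2. Opened starts are higher in either replicate, as LOC115488376 at 11.16 and 7.20 and Gm32319 at 7.48 and 10.4, while the closed starts drawn are all higher in cKIT+ replicate 2, as Trim21 at 3.24 and 10.74.

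Starts of interferon-responsive genes, the antiviral program switched on by interferon, recurred among the closed genes. A list of 47 such genes was drawn up after closed genes had been seen, so its counts describe and support nothing. Of its 39 genes with a start, 12 (30.77%) were closed, beside 1.96% of all genes, and 0 were opened. Tlr3, a sensor of viral RNA, had folds of 5.29 and 8.06, and Ifih1, the sensor MDA5, 5.53 and 6.80. Irf9, the DNA-binding subunit of the factor that interferon activates, had 3.20 and 8.12. The other 9 closed genes were effectors of the response or its regulators. Herc6 had 3.87 and 7.65, Igtp 3.82 and 7.43, and Trim5 3.48 and 7.76. The remaining 6 were Trim21, Ddx60, Rsad2, Gbp7, Slfn5 and Trim56. Both cKIT+ lists held 23 of the 39 starts and both 4C-sorted lists 10. The number closed was 12 with lists of equal length, 5 at −log10 q of at least 5, and 24 without cKIT+ replicate 1, a setting with 2433 closed genes in all. Another 12 of the 39, among them Ifit1, Ifit2, Cxcl10 and Irf7, had a peak in cKIT+ replicate 2 alone. In the lists of cKIT+ and 4C-sorted cells from Smarca5 fl/delta; Ddx4-Cre+ mice, 15 of the 39 had the closed pattern, beside 1884 (7.32%) of all genes.

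Promoters of 4 of these closed genes are shown because they carry the interferon-stimulated response element, read here as a GAAA, any 2 bases and another GAAA, on either strand. Capitals mark it.
Igtp: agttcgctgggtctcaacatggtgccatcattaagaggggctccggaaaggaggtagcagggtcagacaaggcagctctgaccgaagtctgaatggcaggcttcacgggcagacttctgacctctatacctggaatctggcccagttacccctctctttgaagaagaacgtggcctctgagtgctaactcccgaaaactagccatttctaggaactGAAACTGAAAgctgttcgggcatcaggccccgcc
Gbp7: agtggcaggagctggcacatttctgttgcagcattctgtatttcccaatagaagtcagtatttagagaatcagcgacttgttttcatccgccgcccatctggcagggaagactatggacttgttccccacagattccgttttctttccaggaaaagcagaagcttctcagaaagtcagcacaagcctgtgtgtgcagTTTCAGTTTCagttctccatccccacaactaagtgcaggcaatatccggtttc
Ddx60: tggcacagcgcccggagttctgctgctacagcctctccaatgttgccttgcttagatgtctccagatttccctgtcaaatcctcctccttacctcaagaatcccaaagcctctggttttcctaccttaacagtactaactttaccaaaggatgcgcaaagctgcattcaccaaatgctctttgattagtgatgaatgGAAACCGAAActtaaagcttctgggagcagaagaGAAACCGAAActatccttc
Trim5: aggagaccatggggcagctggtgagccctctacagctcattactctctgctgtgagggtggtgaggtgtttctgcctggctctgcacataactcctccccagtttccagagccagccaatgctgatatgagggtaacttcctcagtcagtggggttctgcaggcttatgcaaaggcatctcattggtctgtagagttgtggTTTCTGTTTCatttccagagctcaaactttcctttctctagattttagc
They lie at chr11:58199306-58199555 (+ strand), chr3:142530086-142530335 (+ strand), chr8:61927837-61928086 (+ strand) and chr7:104288107-104288356 (- strand). The marked word begins 34 bases before the start in Igtp, 53 in Gbp7 and 49 in Trim5, and Ddx60 has 2 copies, which begin 53 and 19 bases before it. Within 250 bases before to 50 after the start, 20 of the 39 interferon genes held the word, whatever their pattern. Among the 12 closed interferon genes 8 held it. So did 26 of the 493 other closed genes (5.27%), 4.16% of opened genes and 3.50% of all genes. The word was chosen after the closed genes had been seen, and a match is not evidence of binding.

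Markers of somatic cells that a sort could have let through were read in the same way. Of 7 macrophage genes with a start, 2 were closed and 1 opened, and 0 were held by all 4 lists. C1qb, a complement subunit, had 3.09 and 9.26 in the cKIT+ lists, and Lyz2, the macrophage lysozyme, 3.59 and 4.39. Aif1 was opened with 3.91 and 3.12. At −log10 q of at least 5 none of these 3 genes kept its pattern. The other 4 macrophage markers, Cd68, Cx3cr1, Ptprc and C1qc, had a peak in cKIT+ replicate 2 and in no other list, with folds of 3.14, 3.57, 3.85 and 6.38. The 2 cKIT+ peaks near the start of Lyz2 did not lie in a shared closed region, and its locus held 1 opened and 0 closed regions. Of 6 T cell genes 4 had no peak in any list, and of 8 mast cell genes 5 had none, beside 34.05% of all genes. The 5 were Cpa3, Ms4a2, Fcer1a, Mcpt4 and Cma1. Of the other mast cell genes 1 was held by all 4 lists, and Hdc and Gata2 had another pattern. The locus of Hdc held 2 closed regions and 1 opened, and that of Gata2 0 closed and 1 opened. Of 6 erythroid genes, Hba-a1 was closed (3.13 and 3.15), 2 were held by all 4 lists and 3 had no peak. Of 8 Sertoli, 9 Leydig and 6 peritubular, stromal or endothelial genes, 0 were opened or closed. A peak in cKIT+ replicate 2 alone was found at 3 of the Sertoli, 2 of the Leydig and 2 of the peritubular, stromal or endothelial genes, and at 7.49% of all genes. It was also found at 0 of 6 erythroid, 1 of 6 T cell and 1 of 8 mast cell genes. Of 22 Hox and 17 retinoic acid genes, 2 each had it. It was found at 0 genes of the lists of spermatogonia, meiosis, piRNA, sperm and housekeeping. Most starts of those lists were held by all 4 lists, which excludes this pattern for them. Within 10 kb of the gene, start included, 8 of 16 Sertoli genes and 5 of 12 macrophage genes (41.7%) had a closed region. Of all protein coding genes, 5162 of 20665 had one. The Sertoli and macrophage shares were the highest among the somatic lists. The other somatic lists had 2 of 12 Leydig, 1 of 8 T cell, 2 of 9 mast cell and 2 of 8 erythroid genes. Peritubular, stromal or endothelial genes had 3 of 12. The spermatogonial list, with 14 of 30 (46.7%), lay between the Sertoli and macrophage lists. Dmrt1, with 1 closed region, is in both the Sertoli and the spermatogonial list. Windows of neighbouring genes overlap, so a region can count for several genes. The windows of C1qa, C1qb and C1qc overlap in this way, and each held 1 closed region. The part of somatic cells in the closed interferon and immune genes was not tested.

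Genes of meiosis showed a different picture: nearly all their starts were held by all 4 lists. That was so for 19 of 20 genes of meiotic entry and the start of prophase, 25 of 26 recombination genes, 24 of 25 pachytene regulators and 20 of 21 piRNA pathway genes. It was so for 21 of 21 replication genes, 15 of 15 housekeeping genes and 18 of 24 spermatogonial genes. Over all genes, 11177 of 25748 starts had this pattern. The exceptions were few. Ccnb1ip1, the crossover factor HEI10, was the only opened recombination gene, with 6.39 and 6.43 at chr14:50795279-50795950. Among 17 testis metabolic isozymes, Slc2a5, the fructose transporter, was opened with 6.76 and 7.67 (chr4:150118887-150120209), and Pgam2, a phosphoglycerate mutase, with 4.29 and 4.95. Stra6, the receptor for retinol-binding protein, was opened with 4.01 and 3.32.

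Of 57 spermatid and sperm genes, 36 were already held by all 4 lists, 1 was opened, 1 was closed and 12 had no peak. Dnah17, a dynein heavy chain of the sperm tail, was opened with 4.19 and 3.83. H1f7, the linker histone of spermatids, was closed with 3.58 and 6.65. Among 24 spermatogonial genes, Lhx1, a LIM-homeodomain factor of self-renewing spermatogonia, was opened with 4.50 and 6.33, and 0 were closed. Of 22 Hox genes Hoxd12 was closed, 6 were held by all 4 lists and 6 had no peak. With peaks of −log10 q of at least 5, Stra6, Lhx1, H1f7 and Hoxd12 lost their pattern, while Ccnb1ip1, Slc2a5, Pgam2 and Dnah17 kept it.

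**Figure D4:**
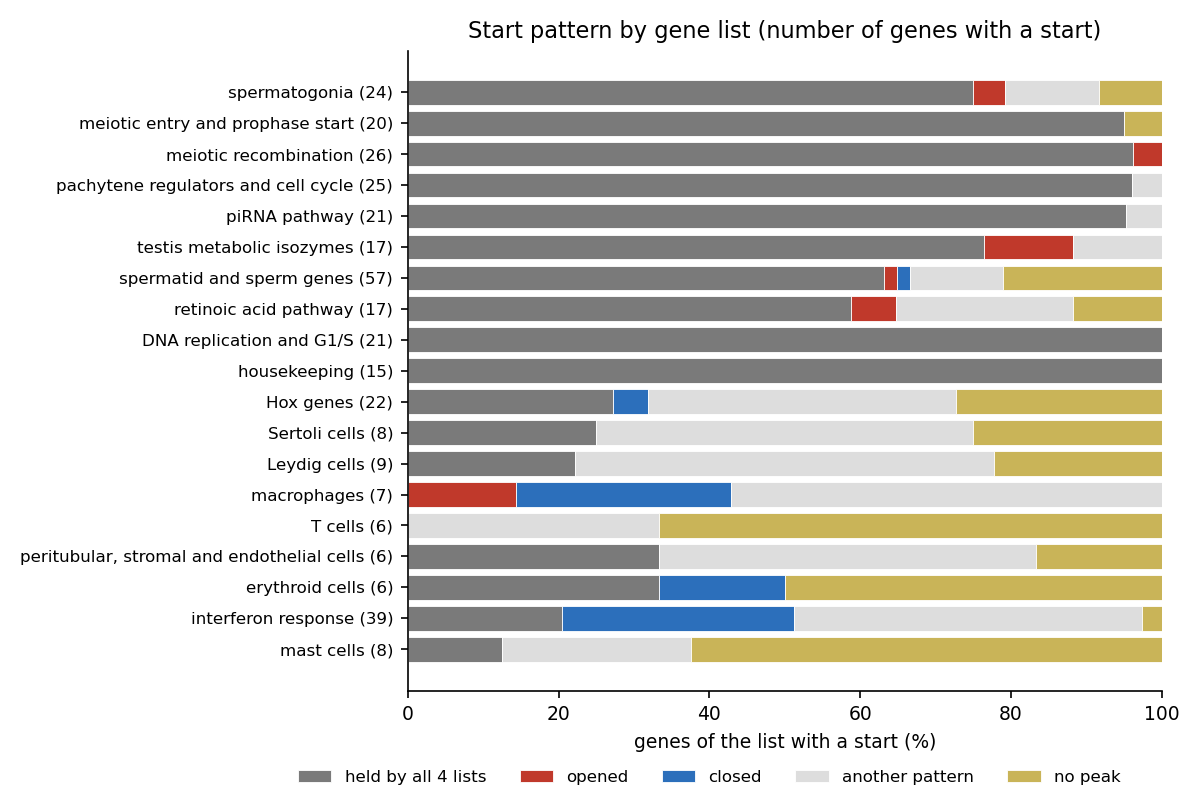
Horizontal bars give, for each gene list, the percent of its genes with a start (number in parentheses) whose start was held by all 4 lists, opened, closed, of another pattern or without a peak. The lists of meiosis, piRNA, replication and housekeeping genes are almost wholly grey, held by all 4 lists, while 30.77% of the interferon list is blue.

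Where a start was held by all 4 lists, its fold still differed. Folds are relative to the background of their own library, and are set side by side as a description. Kit had 4.18 and 4.06 in 4C-sorted and 5.49 and 6.71 in cKIT+ cells. Stra8, the retinoic acid target that starts meiosis, had 3.24 and 3.86 against 4.37 and 5.14. At both genes the 4C-sorted values lay below the cKIT+ values. Pgk2, the testis phosphoglycerate kinase, had 7.86 and 7.65 in 4C-sorted and 3.25 and 3.12 in cKIT+ cells. Ccna1, the meiotic cyclin A1, had 8.09 and 9.43 against 4.25 and 5.24. At Piwil1, the piRNA-binding protein MIWI, the values were 6.36 and 5.71 against 4.02 and 4.90. Pdha2, the testis subunit of pyruvate dehydrogenase, stood at 6.08 and 5.98 against 4.41 and 5.33. At these 4 genes the 4C-sorted values lay above the cKIT+ values, also after each fold was divided by its library's median. Tnp1, a transition protein of spermatids, stood at 3.07 and 3.11 against 3.49 and 3.20. Prm1, a protamine, had no peak in 4C-sorted replicate 1 and 3.08, 3.18 and 3.71 in the other lists.

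Over the lists, 17 of 36 sperm genes with a start in all 4 lists had both 4C-sorted folds above both cKIT+ folds and 3 the reverse. After division by the library median the counts were 16 and 6. Over all 11177 such genes the shares were 30.9% and 21.0% before and 26.6% and 37.0% after that division, which lowers the log2 difference by 0.11. The median log2 difference was 0.25 for the sperm genes and 0.05 for all genes, or 0.15 and -0.06 after division. Tekt1, Tekt2 and Tekt3, filaments of the tail, and the dyneins Dnah1 and Dnah8 were among the sperm genes with higher 4C-sorted folds before division. For piRNA pathway genes, 11 of 20 lay above and 2 below, and 7 and 5 after division. Pachytene regulators went the other way, with 8 of 24 above and 10 below, and 4 and 15 after division. Among 21 replication genes 4 lay above and 7 below, and 3 and 13 after division, and among 15 housekeeping genes 1 and 8, and 1 and 11.

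Among all 18565 regions held by the 4 lists, both 4C-sorted folds were at least 2 times both cKIT+ folds in 135 (0.727%), and the reverse held in 72 (0.388%). After division by the library median the counts were 59 and 162, so the split turned. At starts, the 4C-sorted folds stood furthest above at C330020E22Rik, with 12.06 and 10.36 against 3.51 and 3.01. Rtn1, an endoplasmic reticulum protein, had 11.27 and 10.7 against 3.50 and 3.78. Fmn2, a formin that nucleates actin, had 11.86 and 10.68 against 3.65 and 4.01. D930020B18Rik, Serp2, 1700001C19Rik, Lad1 and Pak6 followed. In the other direction Esrra, an orphan nuclear receptor of energy metabolism, had 3.10 and 3.28 in 4C-sorted against 9.91 and 9.38 in cKIT+ cells. Myorg, Stambp, Sh2d3c, Gtpbp1, Gm34371, Tprn and Rras followed. At the named regions the groups did not overlap, which the rule for naming them requires.

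The word bound by MYB proteins, in the 4 forms given above and on both strands, lay within 300 bases around the start in 42.84% of opened genes. The share was 22.38% of closed genes, 25.05% of genes held by all 4 lists, 30.53% of genes without a peak and 27.97% of all genes. Opened promoters were poor in CpG, with a median observed-to-expected ratio of 0.28 against 0.35 in closed genes and 0.78 in genes held by all 4 lists. Within promoters of a ratio up to 0.6, the MYB word was in 44.44% of 567 opened, 22.2% of 410 closed and 31.27% of 2670 genes held by all 4 lists. It was in 47.97% of opened long noncoding RNA genes and in 33.48% of opened protein coding genes. In closed genes the shares were 21.9% and 22.71%.

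The words of opened genes lay close to the start. In the 50 bases before the start there were 20.96 words per 100 opened promoters. In bins of 50 bases the number was 6.78 at 250 to 200 bases before the start and 12.63 in the 50 bases after it. In closed promoters it was 3.76 just before the start and in those held by all 4 lists 5.30. Of the words, CAACTG was in 23.88% of opened and 13.21% of all promoters, and TAACTG in 17.1% and 10.12%. The RFX word GTTGCCA was in 6.93% of opened, 2.77% of closed and 4.51% of all promoters. The GC box GGGCGG was in 20.8%, 33.27% and 36.8%, and the CCAAT word in 40.37%, 35.84% and 37.73%. These are matches of letters and no measure of binding.

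**Figure D5:**
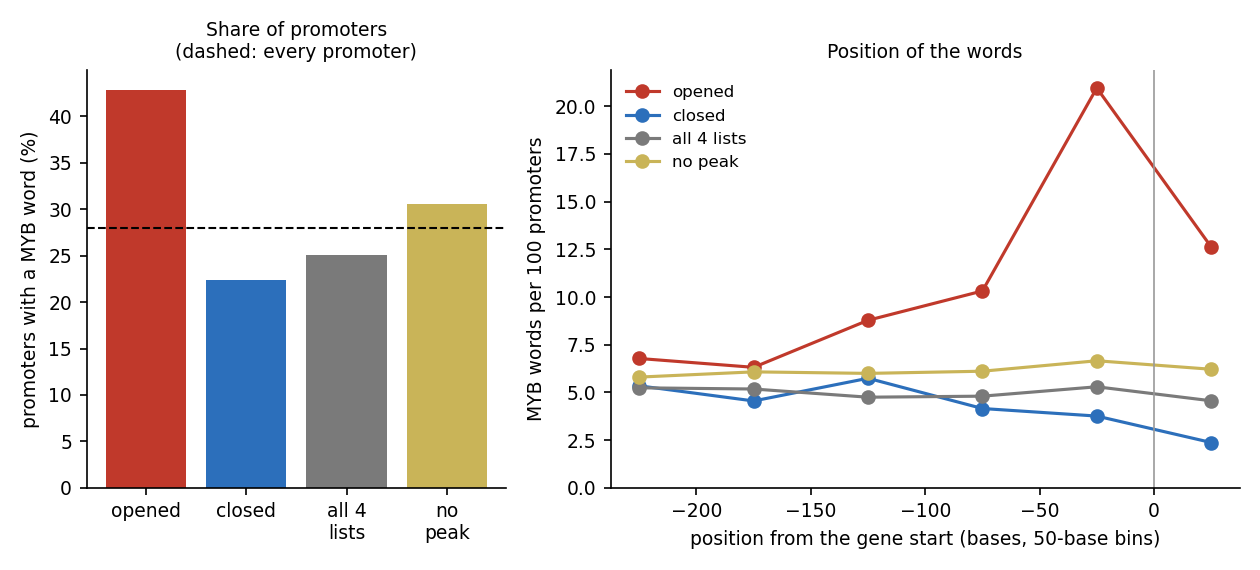
The left bars give the percent of promoters (250 bases before to 50 after the start) with a MYB word, by start pattern, with a dashed line for every promoter. The right lines give words per 100 promoters against position from the start in bases, and the opened genes peak at 20.96 just before the start while the other classes stay below 7.

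The share of MYB words stayed higher in opened than in closed starts in each of the other settings in which it was read. It lay between 31.36% and 42.26% in opened and between 21.69% and 28.81% in closed starts. Settings that leave out a library keep all 649 opened and 505 closed genes, so their shares partly repeat the main ones. The lowest opened value came without cKIT+ replicate 2. That setting adds the 993 genes held by both 4C-sorted lists and cKIT+ replicate 2 but not replicate 1. The opened share fell from 42.84% to 31.36% there, so it was lower in the added genes than in the 649. The same measure in libraries the comparison did not use gave 46.11% of 566 opened and 27.97% of 1884 closed genes in the cKO lists. Of the 275 genes opened there and in neither class in wild type, 39.64% held the word. Genes held by all 4 wild-type lists were ordered by the fold difference into 5 equal groups. The share was 26.21% in the group with the lowest 4C-sorted folds and 24.33% in that with the highest. At second starts of genes with another start held by all 4 lists, the opened and closed shares were close. The word lay at 12 of 29 opened and 14 of 34 closed ones.

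Within the gene or 10 kb to each side, start included, several genes of germ cells carried opened or closed regions. Ddx4, the germ cell RNA helicase also called Vasa, had 4 opened and 0 closed regions, with folds of 2.93 to 4.24. Boll, an RNA-binding protein needed for spermatid formation, had 4 opened and 0 closed regions with folds of 2.90 to 3.60. Hormad1, a protein of the meiotic chromosome axis, had 3 opened and 0 closed regions. Kit itself had 2 opened and 1 closed region, and the wider opened one, chr5:75568637-75570020 before the gene, had 4.58 and 4.94. Etv5, a factor of stem cell self-renewal, had 3 closed and 0 opened regions. Zbtb16, the stem cell factor PLZF, had a closed region at chr9:48729511-48730074 (5.38 and 9.08) and an opened one at chr9:48744088-48744837 (4.38 and 5.35). Rec114, a partner of the meiotic break machinery, had 4 closed and 2 opened regions. Its opened region chr9:58710065-58710195 had 8.88 and 7.56. Gfra1, the GDNF receptor of stem cells, had 3 opened and 2 closed regions. Ddx4, Boll, Hormad1, Rec114, Gfra1, Etv5 and Zbtb16 were named after their values were seen.

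By list, 15 of 30 spermatogonial genes had an opened region in this window and 14 (46.7%) a closed one. Of 45 interferon genes, 7 (15.6%) had an opened and 17 (37.8%) a closed region. The window includes the start, and the 12 interferon genes closed at the start are all among these 17. The closed share of this list therefore largely repeats its start calls. Of 33 recombination genes, 3 (9.09%) had an opened and 8 (24.2%) a closed region. Of 31 pachytene regulators, 12 (38.7%) had an opened and 7 (22.6%) a closed region, and of 23 metabolic isozymes 6 (26.1%) and 2 (8.7%). For 39 Hox genes, of a median length of 3.7 kb, the opened and closed shares were 43.6% and 23.1%. Hox genes lie in clusters and their windows overlap, so a region can count for several of them. Their shares are therefore not those of independent genes. The opened and closed shares were 28.6% and 42.9% for 21 retinoic acid genes and 32.8% and 26.6% for 64 sperm genes. Both were 23.1% for 26 piRNA genes, and for 23 genes of meiotic entry they were 17.4% and 26.1%. Of 20665 protein coding genes, 5095 (24.7%) had an opened and 5162 a closed region. Longer genes hold more regions, and the median length was 18.5 kb for the spermatogonial list, 37.5 kb for the recombination list and 17.5 kb for all genes.

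The genes with most opened regions inside them were Camta1, a calcium-responsive transcription factor, with 20 opened and 14 closed over 802.2 kb, and Cdh13, a cadherin, with 11 and 12. Sfi1, a centriole protein, had 10 opened and 1 closed in 71.5 kb, and Sorcs2, a sorting receptor of neurons, 9 and 1. Gse1, Cdh4, Gabbr2 and Kcnh1 followed with 8 to 10 opened regions. Atrnl1 had 11 closed and 1 opened, Aff3 8 and 1, and Kalrn 8 and 2. Gm38510, Fry and Itpr2 had 8 or 9 closed regions with 3 to 5 opened. Along the chromosomes opened regions made up 5.08% (chromosome 13) to 7.22% (chromosome 5) of regions and closed ones 5.55% (chromosome 7) to 7.45% (chromosome 13). Over 2411 windows of 1 Mb the medians were 2 opened and 3 closed regions. The window with most opened regions, 25 with 11 closed, lay on chromosome 7 at 19 to 20 Mb, over Dmpk, Six5 and Ercc2. On chromosome 17 at 27 to 28 Mb, over Itpr3, Grm4 and Hmga1, there were 24 opened and 7 closed. The most closed regions in a window were 21, on chromosome 19 at 57 to 58 Mb over Ablim1 and Atrnl1 (14 opened) and on chromosome 9 at 120 to 121 Mb over Cx3cr1 and Ctnnb1 (15 opened).

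Far from starts, the opened region with the highest folds was chr7:36344121-36344379, with 13.22 and 13.5, 173 kb from the nearest start used, Gm46016. The region chr8:109280605-109280869 had 12.54 and 12.88. The closed region with the highest folds was chr13:116192861-116193036, with 18.18 and 24.72, 117 kb from the start of Isl1. Within Cd44, the closed region chr2:102829328-102829493 had 10.45 and 18.99. The strongest closed regions were narrow. Of 62 closed regions with a fold of at least 8 in both lists, 30 were under 200 bp wide, and of 68 such opened regions 3 were.

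The wild-type classes were also read in the lists of Smarca5 fl/delta; Ddx4-Cre+ mice (cKO, 2 4C-sorted and 2 cKIT+ libraries), which took no part in choosing them. Of the 9040 opened regions, 37.64% had the opened pattern in the cKO lists, beside 4.03% of all regions. Of the 9526 closed regions, 62.9% had the closed pattern there, beside 35.66% of all regions. The opposite pattern was found for 1.16% of opened and 0.25% of closed regions. At starts, 291 of the 649 opened genes (44.84%) were opened in the cKO lists, beside 2.20% of all genes, and 254 of the 505 closed genes (50.3%) were closed, beside 7.32%.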

How the data were processed

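ATAC-seq reads were processed by the authors with cutadapt, Bowtie2 and MACS2 on mm10, per the submitters' processing notes; their versions and settings are not given in the sources used here. Every peak of a deposited broadPeak list carries a score, a fold enrichment (a ratio over the local background of its own library), a −log10 p and a −log10 q, all the authors' own values. Peaks were called per library. The authors' fold was used to describe and rank peaks. Deposited peak names of cKIT+ replicate 1 begin differently from those of the other lists, and whether it was called with other settings, which would change the opened and closed classes, is not known here. Coordinates were made 1-based.

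Peaks on chromosomes 1 to 19 were merged over the 4 lists with Python 3.11.15, pandas 2.3.3 and numpy 2.4.6, and presence required 1 bp of overlap. Gene starts (31396 starts of 25748 genes) came from RefSeq on GRCm38.p6, with 1000 bp to each side. A gene was held if any of its starts was, and its promoter for the word search was that of the start with the strongest peak. Library measures were compared with exact permutation tests. The merging was tested on simulated peaks. Samples were grouped by their labels; replicate numbers come from the titles.

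Members, gene lists and words were chosen with earlier results of these data known. The genes named were the 12 starts, 8 genes with regions inside, 8 distal regions and 8 shared starts furthest apart in each direction, up to 4 opened or closed genes of each list, and a fixed set around Kit, Stra8 and Pgk2. The interferon and mast cell lists, the response element and grouping by RIKEN names were added after seeing the data.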

Additional observations from a re-analysis of the deposited data

How the results depend on the processing

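Counts of opened and closed regions and genes depended on the peaks used and on the library, and the cause was not tested except where the construction shows it. With peaks of −log10 q of at least 5 there were 4613 opened and 3014 closed regions, 8286 in all 4 lists, 1090 opened and 242 closed genes, and a MYB share of opened genes of 34.68%. With lists of equal length there were 4134 closed regions, 1230 opened and 263 closed genes, a MYB share of 33.33%, and the log2 difference in covered length turned from -0.19 to 0.17. Requiring peaks to cover 50% of the region or start window left 8901 regions in all 4 lists and 249 closed genes; a start window then needs about 1 kb of peak. Fold differences of at least 2 times were 59 and 162 after scaling to library medians. Leaving out each library in turn gave 10281 to 20477 opened regions, 10630 to 80044 closed regions, 19543 to 23285 in all 4 lists, 833 to 1642 opened genes and 664 to 2433 closed genes, since fewer lists must lack or hold a region. The same settings gave log2 differences (4C-sorted minus cKIT+) of -1.18 to 0.15 in peak number, -0.95 to 0.58 in covered length, -0.12 to 0.89 in the share of peaks at starts, 0.42 to 0.57 in median width and -0.26 to -0.19 in the share outside genes. Without cKIT+ replicate 2 peak number stood at 0.15, covered length at 0.58 and the share at starts at -0.12, each turned in sign. MYB shares ranged from 31.36% to 42.26% in opened and 21.69% to 28.81% in closed genes over the settings in which they were read. They were not read under 50% cover. Settings that leave out a library keep all 649 opened and 505 closed genes, so their MYB shares partly repeat the main ones. Of 19 opened genes named by rule, 16 remained opened at −log10 q of at least 5 and 19 with equal lists; of 20 closed genes, 9 and 17 remained closed. Of all 649 opened genes 223 and 611 remained, and of all 505 closed genes 45 and 216. Under 50% cover 1 opened and 0 closed named genes remained, and 24 and 4 of all. With a replicate block the smallest possible exact permutation p is 0.5, which the width difference of 0.49 and the share outside genes (-0.23) reached. The replicate deviations of the stages correlated at 0.02 over 18565 regions. Whether the replicate numbers pair the samples cannot be told from this, because differences in depth or peak calling between replicates could mask shared animals. The MYB and interferon settings were chosen after seeing the data.

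Each group has 2 libraries, so the exact permutation test cannot give a p under 0.3333, and depth is unknown. Presence in a list depends on that list's threshold and depth, and cKIT+ replicate 2 holds over 2 times the peaks of the other lists. The 4C and cKIT+ sorts, their batches and their processing cannot be told apart in these files.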

Other observations

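Hairpins of microRNAs, the short RNAs that repress messages through a seed of bases 2 to 8, were read as gene starts were, with 1000 bp to each side. Of 919 hairpins, 24 (2.61%) were opened and 16 (1.74%) closed, near the 2.52% and 1.96% of all gene starts. The mature arms of 6 of them follow, chosen after their values were seen to show opened and closed hairpins with well-studied mature forms. They are from RefSeq, 5′ to 3′ in RNA letters, with the seed in capitals.
mmu-let-7e-5p: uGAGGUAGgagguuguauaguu
mmu-miR-125a-5p: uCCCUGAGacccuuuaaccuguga
mmu-miR-184-3p: uGGACGGAgaacugauaagggu
mmu-miR-675-5p: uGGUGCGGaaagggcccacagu
mmu-miR-181d-5p: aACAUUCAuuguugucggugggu
mmu-miR-582-5p: aUACAGUUguucaaccaguuac
The first 4 are opened and the last 2 closed. Mirlet7e and Mir125a share the opened region at the start of Spaca6, a gene of sperm and egg fusion, with folds of 2.74 and 3.35 in the 4C-sorted lists. Mir184 had 4.71 and 5.01, and Mir675, which lies in the H19 gene, 7.86 and 8.84. Mir181d was closed with 2.92 and 3.36, and Mir582 with 5.16 and 3.70. None of the 6 seeds was the same as another. The lists measure open chromatin, not microRNA levels.

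Some genes had a start held by all 4 lists and another start, over 2 kb away, that was opened or closed. Of 1868 genes with starts this far apart, 29 had an opened and 34 a closed second start. Dip2b had an opened start 115.7 kb from its shared start, with 6.28 and 7.40, and Dixdc1, a Wnt pathway protein, had one 9.75 kb away with 6.49 and 7.22. Trim24, a chromatin reader, had an opened start 29.68 kb away with 4.85 and 4.48. On the closed side Ctnnd1, the catenin p120, had a start 8.24 kb from its shared start with 3.93 and 10.29 in the cKIT+ lists. Creb5 had one 286.1 kb away with 3.57 and 9.38, and Foxp1, a forkhead factor, one 238.2 kb away with 4.02 and 4.88. A MYB word lay at 12 of the 29 opened and 14 of the 34 closed second starts, beside 27.97% of all promoters. These shares were close to each other, so the difference between opened and closed genes was not seen at second starts.

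Some single starts are given here that were named after their values were seen, and they show nothing of gene groups. Among opened starts of transcription factors, Sox1 had 3.90 and 3.19, Neurod1 2.98 and 3.45, and the mesoderm factor T 3.47 and 3.10. Among closed ones were Pax9, with 5.62 and 6.91, Tbx18, with 3.50 and 6.55, and Nr2f1, with 4.56 and 5.46. The glutamate receptor genes Gria4, Grm7 and Grik2 were closed, with 4.35 and 3.84, 4.00 and 4.22, and 4.64 and 4.41. Kitl, the ligand of KIT, was closed with 3.48 and 6.22.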
